A study of Mus musculus with 8 samples.

Results

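The 7 S100 calcium-binding protein genes S100a8, S100a9, S100a4, S100a6, S100a10, S100a11 and S100a13 were followed in mouse peripheral blood after acute stress. They were taken by symbol from a count table of 21878 genes, in which 17 symbols belong to the S100 family, and all 7 had enough counts to be tested. RNA was sequenced from the blood of 8 female wild-type C57BL/6 mice aged 6 to 8 weeks. In the stress group (n = 4) the mice were restrained for 6 h in a ventilated tube, and in the control group (n = 4) littermates stayed in their cage without restraint. Both groups went without food and water over that time, and whole blood was frozen without sorting of cells. The comparison asks how acute stress changes transcripts in circulating cells. The labels number the replicates without saying more of where each came from, so a p-value measures the spread between these samples.

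S100 proteins are small calcium sensors that dimerise, change shape on binding calcium and then bind partner proteins. S100a8 and S100a9 form calprotectin, which is stored in the cytosol of neutrophils and monocytes, binds zinc and manganese, and is released as a ligand of Tlr4 and other receptors. S100a4 binds non-muscle myosin, S100a6 (calcyclin) binds the calcyclin-binding protein, S100a10 and S100a11 pair with annexins at membranes, and S100a13 takes part in the release of growth factors that lack a signal peptide.

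All 7 genes lie on chromosome 3 within 3.05 Mb (GENCODE M21 on GRCm38), among 14 S100 genes of the table there. In order of start, S100a13 lies at chr3:90514435-90524581, S100a4 at chr3:90603771-90606045, S100a6 at chr3:90612882-90624181 and S100a8 at chr3:90668978-90670035, all on the plus strand. S100a9 lies at chr3:90692632-90695721 on the minus strand, with 22596 bases between it and S100a8. S100a11, at chr3:93520488-93526287, and S100a10, at chr3:93555080-93564643, sit apart from the others on the plus strand. The exons of S100a4 share 302 bases with Gm42674, an annotated gene on the same strand that has no row of its own, so its counts carry that doubt.

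The bases before S100a8 and S100a9 are shown because these genes, whose proteins pair, had like count ratios to each other in both groups. They come from RefSeq on GRCm38.p6, whose promoter table matched 6 of the 7 genes, and are limited to the bases outside the first annotated exon. For S100a8 these are 157 bases, chr3:90668821-90668977 on the plus strand. They end 93 bases before the RefSeq start of S100a8, while those of S100a9 run up to its RefSeq start. For S100a9 these are 250 bases, chr3:90695722-90695971 on the minus strand, with a match to the C/EBP motif TTGCNNAA in capitals.
S100a8: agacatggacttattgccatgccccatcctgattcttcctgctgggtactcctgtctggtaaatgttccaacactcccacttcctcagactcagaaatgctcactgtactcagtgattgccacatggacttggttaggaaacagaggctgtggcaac
S100a9: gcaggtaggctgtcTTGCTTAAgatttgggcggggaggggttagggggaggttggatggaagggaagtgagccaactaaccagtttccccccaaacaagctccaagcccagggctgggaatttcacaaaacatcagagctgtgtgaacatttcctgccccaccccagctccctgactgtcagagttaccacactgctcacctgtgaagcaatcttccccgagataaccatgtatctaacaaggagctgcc

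The TATA box letters TATAAA were found in the windows of S100a8, S100a9 and S100a4, each window running from 250 bases before to 50 bases after the RefSeq start. The 30 bases around each match are chr3:90669029-90669058 on the plus strand, chr3:90695704-90695733 on the minus strand and chr3:90603727-90603756 on the plus strand, with the match in capitals.
S100a8: caagctttcctcTATAAAagcagctgacac
S100a9: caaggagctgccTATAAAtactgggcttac
S100a4: ggcctggcagggTATAAAtaggtcagattg
The match began 30 bases before the start in S100a8, 31 bases before it in S100a4 and at base 1 after it in S100a9. That of S100a8 lies after the end of the longer stretch printed for it above. On both strands, TATAAA was held by 3 of the 6 windows matched and by 13.6% of 32851 windows of 300 bases. The C/EBP letters TTGCNNAA were held by 1 of 6, that of S100a9, and by 10.8% of all. The glucocorticoid response element was in 0 of 6 and in 0.475% of all, and the single hexamer AGAACA of that element was in 1 of 6 (S100a6) and in 19.0% of all. These matches describe letters and not bound sites.

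The libraries held 31471145 to 39014775 counts in the controls and 25978683 to 29655725 after stress. Haemoglobin transcripts took 51.9 to 63.8% of the counts in the controls and 61.2 to 75.5% after stress, leaving 11409246 to 18771951 and 6352711 to 11007593 other counts. Stress library 3 had the highest haemoglobin share and the fewest other counts. Levels are given as CPM (counts per 1000000 counts) scaled by the trimmed mean of M-values (TMM), which sets libraries beside each other by the bulk of genes, and the same values on total counts alone follow where the scale matters. Each member had between 69 (S100a4) and 4968 (S100a9) counts in a library. Beside the erythroid transcripts, the marker genes of platelets, B cells, T cells, monocytes and neutrophils were all present in the libraries, although Ly6g, the surface antigen that defines mouse neutrophils, was at only 0.165 ± 0.0856 CPM in the controls.

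On the TMM scale all 7 S100 genes were higher in stress blood, and in each of them every stress library lay above every control library. In the quasi-likelihood test of edgeR, with p-values adjusted over 11718 genes by the Benjamini-Hochberg method, 7 of 7 were higher at an adjusted p below 0.05, where 10.4% of all tested genes were higher and 3.69% lower. The study's thresholds (log2 fold change above 1 and adjusted p below 0.01) were applied to this edgeR fit, while the study used DESeq2. By edgeR, 4 of 7 were called up (S100a8, S100a9, S100a4 and S100a6), against 1.69% of all tested genes. DESeq2 run on the same counts called 5, with S100a11 added. The groups did not overlap for 7 of 7, against 11.1% of all tested genes with every stress library above every control. The median log2 fold change of the 7 was 1.11, beside -0.02 over all tested genes. Since the members were chosen with earlier results of these data known, the shares beside them are a description only. In bulk blood, a change in the number of cells that carry a transcript and a change in its amount per cell cannot be told apart.

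**Figure D1:**
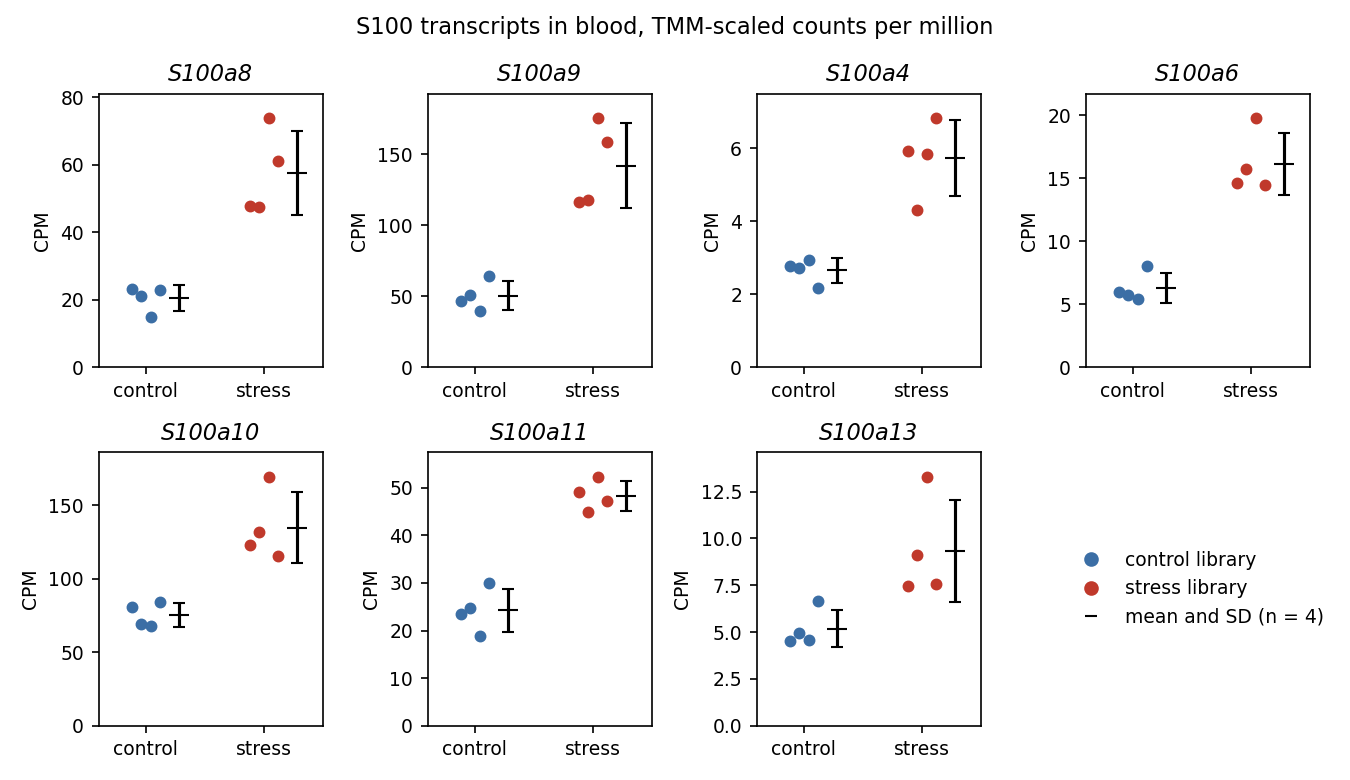
CPM (TMM scale, linear axis from 0) of each S100 gene in 4 control and 4 stress libraries. Points are libraries in order of replicate number, and bars are the mean and SD. No stress point lies at or below a control point, and the narrowest gap is in S100a13 (lowest stress library 7.45 CPM, highest control 6.65 CPM).

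The calprotectin subunits S100a8 and S100a9 had the largest fold changes of the 7 genes. S100a8 was at 23.3, 21.2, 14.9 and 22.9 CPM in control libraries 1 to 4 and at 47.9, 47.5, 73.8 and 61.2 CPM in stress libraries 1 to 4. The lowest stress library held 2.04 times the highest control, the widest gap of the 7 genes, and stress libraries 3 and 4 stood above stress libraries 1 and 2. Its mean went from 20.6 ± 3.90 to 57.6 ± 12.5 CPM (SD, n = 4 each), a log2 fold change of 1.49 (SE 0.17, edgeR adjusted p = 0.000768).

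S100a9 was at 46.8, 50.7, 39.6 and 64.3 CPM in the controls and at 116, 118, 175 and 159 CPM after stress. As for S100a8, stress libraries 3 and 4 stood above 1 and 2, and among the controls library 3 was lowest for both genes. The log2 fold change was 1.50 (SE 0.18, edgeR adjusted p = 0.000768).

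The number of S100a9 counts per S100a8 count was 2.01, 2.39, 2.66 and 2.80 in the controls and 2.42, 2.47, 2.38 and 2.60 after stress, and all stress values lay inside the control range. The means were 2.47 ± 0.347 and 2.47 ± 0.0949 (SD, n = 4 each). On the log2 scale the ratio of S100a8 to S100a9 differed by -0.01 (SE 0.11, exact two-sided permutation test p = 0.943).

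S100a6, which is also called calcyclin, followed at 5.98, 5.75, 5.39 and 8.04 CPM in the controls and 14.6, 15.7, 19.7 and 14.5 CPM after stress. Control library 4 and stress library 3 stood above the rest of their groups. The log2 fold change was 1.36 (SE 0.15, edgeR adjusted p = 0.000768), and by p-value S100a6 ranked 4 among all tested genes, ahead of S100a8 and S100a9 at 12 and 13.

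S100a4, also known as metastasin, was the scarcest of the 7, at 2.77, 2.71, 2.95 and 2.18 CPM in the controls and 5.93, 4.31, 5.84 and 6.82 CPM after stress. It differed from the others in which stress library was highest, which was 4 rather than 3. The log2 fold change was 1.11 (SE 0.18, edgeR adjusted p = 0.00206). Without control library 2 it kept its size (1.11) but not its call (edgeR adjusted p = 0.0106).

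S100a10, the p11 partner of annexin A2, began at 80.9, 69.0, 67.6 and 84.0 CPM, the highest control level of the 7, and reached 123, 132, 169 and 115 CPM after stress. Stress library 3 was again the highest. It rose with a log2 fold change of 0.84 (SE 0.14, edgeR adjusted p = 0.00249), under the fold that a call needed.

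S100a11 was at 23.5, 24.7, 18.9 and 30.0 CPM in the controls and at 49.1, 44.8, 52.3 and 47.2 CPM after stress, the stress group with the lowest coefficient of variation of the 7 genes (6.50%). The log2 fold change was 1.00 (SE 0.13, edgeR adjusted p = 0.000943). Unrounded it lay just below the threshold of 1, so that whether it was called rested on small choices. It was called in 5 of 8 fits that left out 1 library (without control library 2 or 4, or without stress library 1, 2 or 4).

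S100a13 was at 4.54, 4.95, 4.57 and 6.65 CPM in the controls and 7.45, 9.09, 13.3 and 7.55 CPM after stress. Stress library 3 stood far above the other stress libraries, and the lowest stress library exceeded the highest control by only 1.12 times. The log2 fold change was 0.84 (SE 0.20, edgeR adjusted p = 0.0135). It became 0.66 without stress library 3 and 1.01, past the threshold for a call, without control library 4, and the adjusted p was 0.0509 without control library 2.

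Stress library 3 was the highest for 6 of the 7 genes. Without it, the log2 fold changes were 1.36 for S100a8, 1.39 for S100a9, 1.27 for S100a6, 1.12 for S100a4, 0.97 for S100a11 and 0.73 for S100a10, and 4 of 7 were again called by edgeR. Its part in the results beyond these values was not tested.

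Together the 7 genes summed to 184.7 ± 26.5 CPM in the controls and 414.1 ± 67.2 CPM after stress (SD, n = 4 each). Within that sum S100a9 went from 27.1% ± 2.14 to 34.2% ± 3.22 and S100a8 from 11.1% ± 1.24 to 13.8% ± 0.997. S100a10 went from 41.0% ± 2.90 to 32.7% ± 3.23. S100a10 held the most counts of the 7 in all 4 controls. After stress S100a10 held the most in libraries 1 and 2 and S100a9 in libraries 3 and 4, and their mean shares differed by less than the spread between libraries.

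Ratios between members within a library do not depend on how libraries are scaled. Of the 21 pairs, 0 differed between groups after Benjamini-Hochberg adjustment of the exact two-sided permutation test, and 8 had groups that did not overlap, each with p = 0.0286 (adjusted p = 0.075), the smallest that 4 against 4 samples allow. All 8 set S100a8, S100a9 or S100a6 above S100a10, S100a11 or S100a13. The largest shifts in log2 ratio were those of S100a9 to S100a13 (0.66, SE 0.17), S100a9 to S100a10 (0.66, SE 0.18), S100a8 to S100a13 (0.65, SE 0.21) and S100a8 to S100a10 (0.65, SE 0.16). The smallest SE was that of S100a6 to S100a10 (0.53, SE 0.082). S100a4 was in none of the 8, and its ratios had SEs of 0.26 to 0.34. For S100a10 to S100a13 the difference was 0.00 (SE 0.13, exact permutation p = 1.0).

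**Figure D2:**
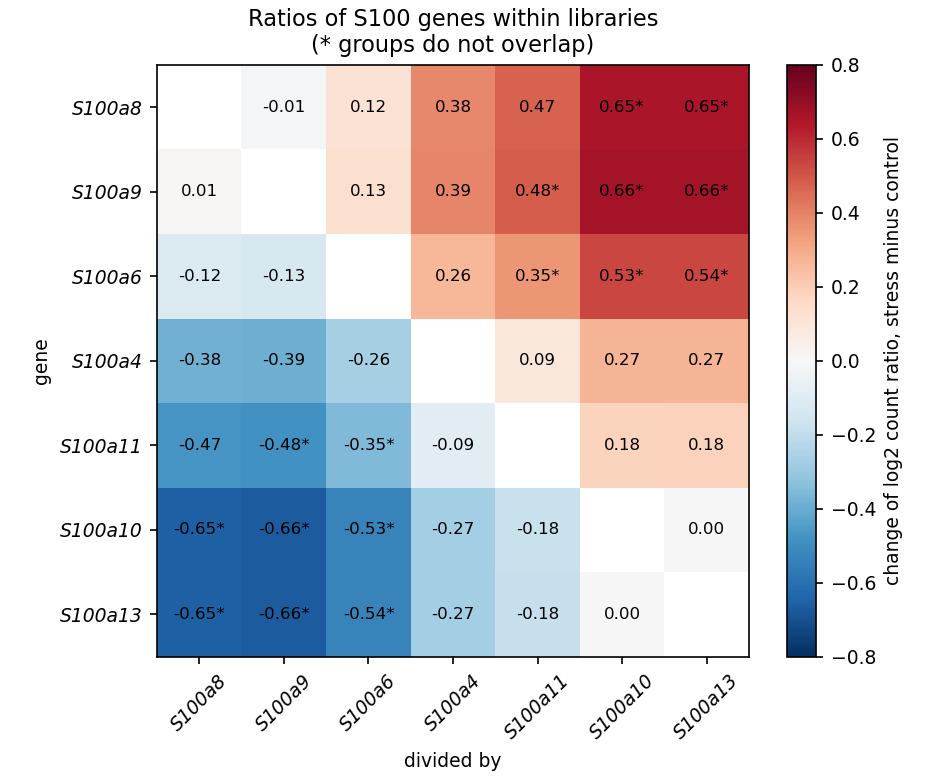
Change in the log2 ratio of counts (stress mean minus control mean, n = 4 libraries each) of the gene in each row divided by the gene in each column. Stars mark the 8 pairs whose groups did not overlap, and each pair appears a second time with its sign turned. The upper right block, S100a8, S100a9 and S100a6 over S100a11, S100a10 and S100a13, holds every starred rise.

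The scale of the libraries decided how large the changes were. On total counts alone the tested genes as a whole had a median of -0.82 on the log2 scale, and the median of the 7 S100 genes became 0.32, so that both moved down by a like amount. On that scale the values were 0.74 for S100a9, 0.72 for S100a8, 0.57 for S100a6, 0.32 for S100a4, 0.24 for S100a11, 0.02 for S100a10 and 0.01 for S100a13. By edgeR, 0 of 7 were called and 1 of 7 was higher at an adjusted p below 0.05 (S100a9, adjusted p = 0.0433). All 7 stayed above the median of all genes. The order of the 7 fold changes was the same on both scales.

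On total counts S100a8 was at 27.0 ± 3.38 CPM in the controls and 44.4 ± 15.4 after stress, S100a9 at 66.1 ± 8.59 and 110.6 ± 43.0, and S100a6 at 8.28 ± 1.06 and 12.3 ± 2.55 (SD, n = 4 each). These 3 kept every stress library above every control, and the other 4 did not. S100a10 was level at 100.2 ± 14.9 and 101.9 ± 17.7 CPM, and so was S100a13 at 6.85 ± 1.18 and 6.91 ± 0.996 CPM. The stress library with the highest value was 4 for 7 of 7 genes on this scale, while stress library 3 was the lowest for 4 of them. The part of the haemoglobin share in the difference between scales was not tested. As a share of the counts outside haemoglobin, the 7 genes together made up 0.0589% ± 0.00266 in the controls and 0.1% ± 0.0137 after stress. On TMM with haemoglobin genes left out beforehand, 4 of 7 were called, with S100a8 at 1.49 and S100a13 at 0.84 on the log2 scale.

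**Figure D3:**
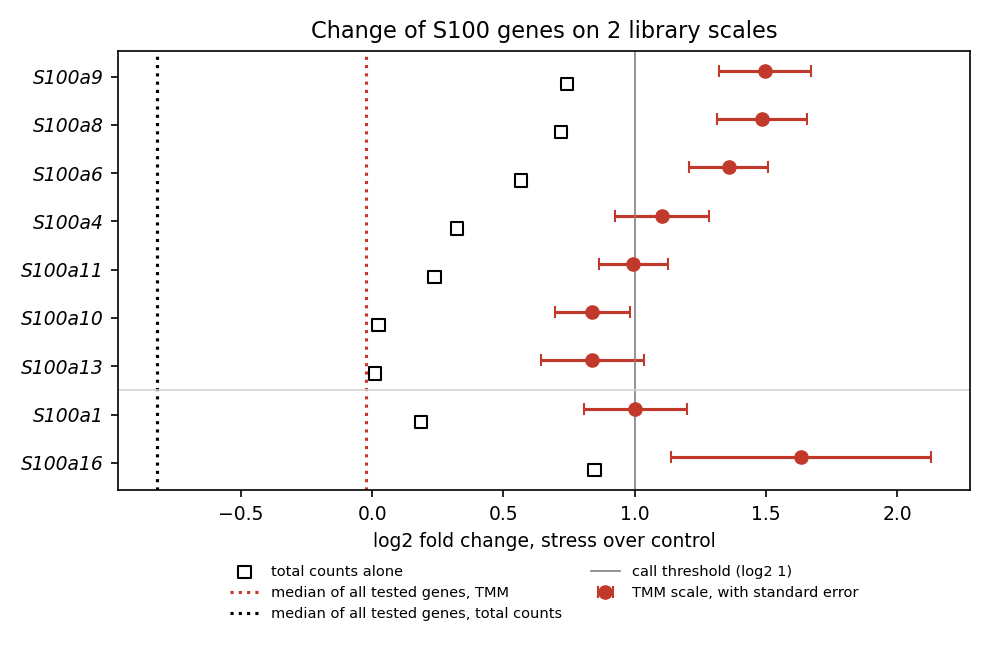
Log2 fold change (stress over control) of the 7 S100 genes and, under the line, of S100a1 and S100a16, on the TMM scale (filled, with SE) and on total counts alone (open squares, no error drawn). Dotted lines are the medians of all tested genes (-0.02 and -0.82). Both the genes and the median move left on total counts.

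Levels were compared between genes per kilobase of exon, on the TMM scale. In the controls S100a9 stood highest at 96.4 ± 19.9 CPM per kilobase, then S100a10 at 62.2 ± 6.83, S100a11 at 47.5 ± 8.90, S100a8 at 29.6 ± 5.61, S100a13 at 7.24 ± 1.40, S100a6 at 4.60 ± 0.873 and S100a4 at 4.54 ± 0.569. After stress the order of means was the same, from 272 ± 57.1 (S100a9) and 111 ± 19.8 (S100a10) over 94.6 ± 6.15 (S100a11) and 83.0 ± 18.0 (S100a8) to 9.81 ± 1.78 (S100a4). S100a9 over S100a10, S100a10 over S100a11 and S100a8 over S100a13 held in all 8 libraries. S100a11 over S100a8 held in 4 control and 3 stress libraries and S100a13 over S100a6 in 4 and 2, while S100a6 and S100a4 were in that order in only 1 control and 3 stress libraries. The order rested on the length used. With the median length of coding transcripts in place of all exons, S100a10 stood first in the controls (129.8 CPM per kilobase, S100a9 97.7), and S100a6 (10.5) passed S100a13 (7.24). On that length the stress order was S100a9 (275), S100a10 (232), S100a8 (118.5), S100a11 (94.6), S100a6 (27.0), S100a4 (13.7) and S100a13 (13.1 CPM per kilobase). By CPM, S100a9 ranked 1094 of 11718 tested genes in the controls and 320 after stress, and S100a8 ranked 2907 and 1008.

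Among the 10 other S100 symbols, only S100a1 and S100a16 had enough counts to be tested. S100a1, a calcium sensor known from heart muscle, went from 20.6 ± 4.59 to 41.3 ± 11.3 CPM, a log2 fold change of 1.00 (SE 0.20, edgeR adjusted p = 0.00653), and was called. S100a1 lies on the minus strand and S100a13 on the plus strand, head to head, with 42 bases between their starts. The call was lost in 9 of 16 alternatives, among them the fits without control library 1, 2 or 3 or stress library 1, 2 or 3. S100a16 went from 0.278 ± 0.165 to 0.879 ± 0.232 CPM (log2 fold change 1.64, SE 0.49, edgeR adjusted p = 0.0429) and was not called, and it passed 0.05 in 7 of 15 alternatives. The other 8 (S100a2, S100a3, S100a5, S100a7a, S100a14, S100b, S100g and S100z) had at most 12 counts in any library, and S100a5 had 0 in all.

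The receptors and adaptors that S100a8 and S100a9 are known to use were tested as a list of 10 genes. For this list and those below, the background is that 5522 of all 11718 tested genes had a log2 fold change above 0. Of all tested genes, 10.4% were higher and 3.69% lower at an adjusted p below 0.05, and 1.69% were called up. All 10 genes of the list had a log2 fold change above 0, 4 were higher at an adjusted p below 0.05 by edgeR, and 1 was called. That gene was Cd14, the co-receptor that hands ligands to Tlr4, at 0.802 ± 0.461 and 4.33 ± 1.41 CPM (log2 fold change 2.51, SE 0.44, adjusted p = 0.00401). The others past 0.05 were Cd33, Bsg and Myd88. Cd33, a sialic acid-binding receptor, had 1.14 (edgeR adjusted p = 0.042). Bsg, the receptor also called CD147, had 0.86 (adjusted p = 0.0469), and Myd88, the signalling adaptor, had 0.54 (adjusted p = 0.00467). Of 16 alternatives, Cd33 passed 0.05 in 7 (adjusted p from 0.00328 to 0.173), Bsg in 5 (0.0113 to 0.869, with 0.181 under the replicate block) and Myd88 in 15, while the call of Cd14 was lost without control library 2 or stress library 1 or 3. Tlr4 itself had a log2 fold change of 0.53 (adjusted p = 0.0928), and its partner Ly96 had the lowest value of the list (0.09). The median of the list was 0.60 against -0.02 for all tested genes, and on total counts -0.15 against -0.82, where 7 of the 10 lay below 0, among them Myd88, Tlr4 and Ly96.

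Annexins bind membranes in the presence of calcium and take up S100 dimers. Of 8 tested, 7 had a log2 fold change above 0, 5 were higher at an adjusted p below 0.05 by edgeR and 2 were called. Anxa1, the partner of S100a11, had a log2 fold change of 1.24 (adjusted p = 0.00208), and Anxa3 had 1.54 (adjusted p = 0.00531). The call of Anxa3 was lost in 9 of 16 alternatives, which were total counts, the replicate block (adjusted p = 0.0175) and each fit that left out 1 library other than stress library 4, and that of Anxa1 in 2 of 16 (total counts and without stress library 3). Anxa2, which forms a tetramer with S100a10, had 0.86 (adjusted p = 0.00291), close to the 0.84 of S100a10. Anxa4 (0.86, adjusted p = 0.0298) and Anxa5 (0.58, adjusted p = 0.00326) also rose, Anxa4 past 0.05 in 11 of 16 alternatives, and Anxa6 had the lowest value (-0.07). The median was 0.72, and -0.08 on total counts, where 4 of the 8 lay below 0, Anxa5 and Anxa6 among them.

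Other binding partners lay nearer to the median of all genes. Of 12 tested (of 15 listed), 8 had a log2 fold change above 0 and 4 below, 0 were called by edgeR and 1 was higher at an adjusted p below 0.05 (Nucb1, a calcium-binding protein of the Golgi, 0.32, adjusted p = 0.0451). The named partners of members did not pass the test: Myh9, the myosin heavy chain bound by S100a4, had 0.21, Cacybp, the calcyclin-binding protein, 0.10, and Ahnak, a scaffold bound by S100a10, -0.19. The list ran from -0.35 (Myh10) to 0.71 (Plat), with a median of 0.10. Both extremes were scarce genes that did not pass the test. Myh10 was at 0.727 CPM in the controls and 0.578 after stress (SE 0.37, edgeR adjusted p = 0.553). Plat was at 0.394 and 0.644 CPM (SE 0.48, edgeR adjusted p = 0.336). On total counts the median was -0.76, and 12 of 12 lay below 0. Nucb1 passed 0.05 in 7 of 16 alternatives.

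**Figure D4:**
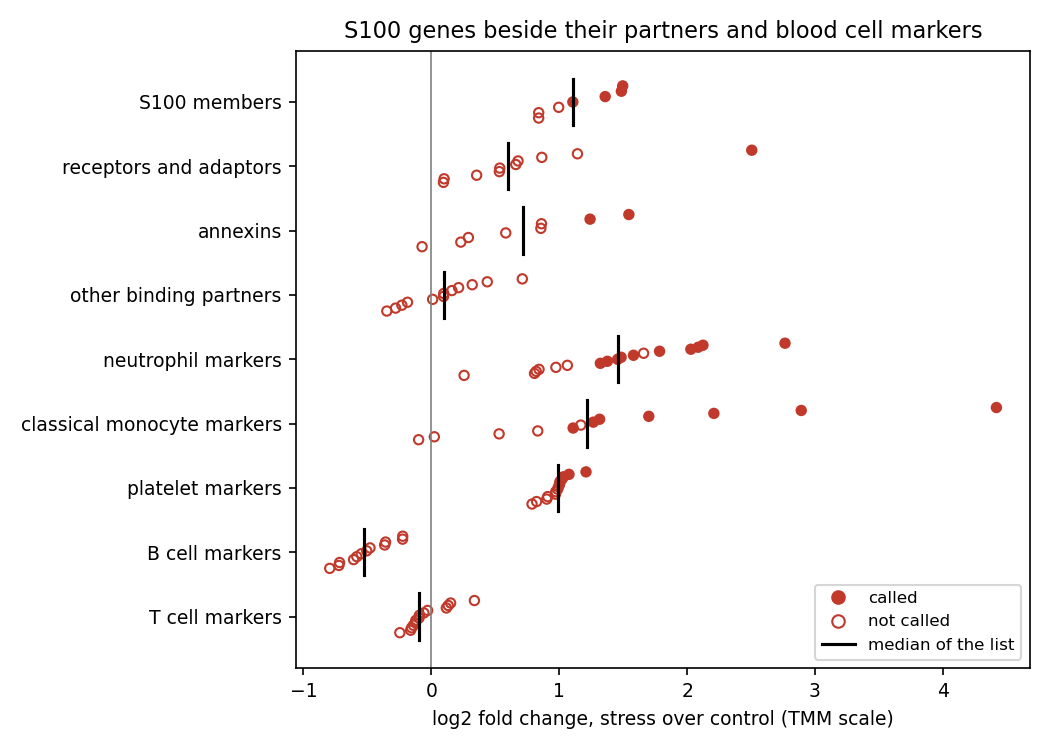
Log2 fold change (stress over control, TMM scale) of each tested gene in the S100 genes, their partner lists and marker lists of blood cells. Filled points were called, open points were not, and black lines are list medians. The S100 genes (median 1.11) lie among the neutrophil (1.46), classical monocyte (1.22) and platelet (0.99) markers and above the B cell (-0.53) and T cell (-0.09) markers, and the erythroid markers (1.05) and haemoglobin genes (1.06), whose medians are the nearest, are not drawn.

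Markers of other blood cells moved at the same time. Of 17 neutrophil markers tested, 17 had a log2 fold change above 0 and 10 were called by edgeR, with a median of 1.46. Their summed level was 162 to 336 CPM in the controls and 482 to 767 CPM after stress, and Ly6g was at 1.19 ± 0.439 CPM after stress (log2 fold change 2.77, SE 0.49, adjusted p = 0.00303). Of 12 classical monocyte markers 11 were above 0 and 7 were called (median 1.22), with sums of 427 to 558 CPM in the controls and 802 to 1414 CPM after stress. Ly6c2, which defines these monocytes, had 0.83 (SE 0.23, adjusted p = 0.034) and passed 0.05 in 7 of 16 alternatives.

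The platelet markers were all 14 above 0, with 6 called (median 0.99) and sums of 1740 to 2586 and 3971 to 4591 CPM, and the platelet chemokine Pf4 had 1.02 (SE 0.20, adjusted p = 0.00562). The 10 erythroid markers tested were above 0 with 0 called by edgeR and 0 past an adjusted p of 0.05 (median 1.05), their sums overlapped (9112 to 25341 and 19377 to 41785 CPM), and Alas2, the haem synthesis enzyme of red cells, had 0.85 (SE 0.43). The 7 haemoglobin genes tested had a median of 1.06 with 0 called and 2 past an adjusted p of 0.05.

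Lymphocyte markers had medians below 0. Of 12 B cell markers 12 were below 0, 7 of them at an adjusted p below 0.05 and 0 called by edgeR (median -0.53, Cd79a -0.22), with sums of 1124 to 1385 CPM in the controls and 764 to 1000 CPM after stress. T cell markers had a median of -0.09 over 14 genes, of which 0 passed an adjusted p of 0.05 by edgeR (Cd3e -0.03, sums of 680 to 732 and 610 to 767 CPM). The median was -0.16 for 9 NK cell markers (1 lower at an adjusted p below 0.05, which was Klrk1 at -0.44, while the defining Ncr1 had -0.58 with an adjusted p of 0.113), -0.43 for 10 non-classical monocyte markers (4 lower) and -0.11 for 4 eosinophil and basophil markers (1 higher). The part of these cell types in the S100 result was not tested, but members could be set beside markers within each library.

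Within libraries, each S100 gene was divided by the summed counts of the neutrophil or the classical monocyte markers. Single abundant genes weigh heavily in these sums. In the controls Csf3r had a mean of 118 CPM in a neutrophil sum of 261 CPM, and Lyz2 273 CPM in a monocyte sum of 502 CPM. Of these 14 ratios, 0 differed between groups by the exact two-sided permutation test with Benjamini-Hochberg adjustment, and 0 had an unadjusted p below 0.05. The S100a8 to neutrophil ratio differed by 0.31 (SE 0.23) and that of S100a9 by 0.32 (SE 0.23) on the log2 scale. The lowest values were -0.38 for S100a10 (SE 0.24) and for S100a13 (SE 0.32) over the monocyte markers. The SEs of the 14 ratios ran from 0.17 to 0.37, so shifts of that size were not detectable here. Larger shifts could be missed too, since the permutation test could not go below p = 0.0286. A single ratio at that p could not pass the adjustment over 14. The ratios are thus not shown to be alike.

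Profiles over the 8 libraries are given as a description, since the libraries share 2 groups and a common scale. The log2 CPM of S100a8 and S100a9 had a Pearson r of 0.99, and 0.87 after the group means were taken out. With the group means taken out, S100a6 and S100a13 had 0.93, and S100a6 and S100a10 had 0.87. S100a4 ran from -0.50 (S100a6) to 0.07 (S100a8) with the other members.

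Among 7716 genes with a mean log2 CPM of at least 2, those most like S100a9 were Retnlg (0.995), Clec4d (0.993) and Ifitm1 (0.993), and for S100a8 they were Gucd1 (0.989), Sirpb1b (0.988) and Selp (0.986). The closest to S100a6 were Dut (0.997), Aldoa (0.995) and Fxyd5 (0.991), and to S100a4 Nr2f6 (0.971), Bcl10 (0.965) and Rap2b (0.960). S100a10 was nearest to Alox5ap (0.997), Slc39a4 (0.995) and Pcmt1 (0.995). S100a11 was nearest to Inpp5a (0.996), Lmna (0.986) and Retnlg (0.985), and S100a13 to Ubxn6 (0.989), Ldha (0.989) and Ube2h (0.989). Retnlg, a neutrophil marker of the list above, was thus named for both S100a9 and S100a11.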

How the data were processed

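Blood RNA libraries of 4 control and 4 stress mice were analysed. The authors deposited 1 table of raw counts per gene, and their processing notes name HISAT2, featureCounts and the build mm10, while versions, gene annotation and strand setting are not given in the sources used here. Of 21878 genes, the 11718 that reached 10 counts in 4 or more libraries were tested with edgeR 4.0.16 (TMM, robust quasi-likelihood test, Benjamini-Hochberg adjustment). A called gene had a log2 fold change above 1 in size and an adjusted p below 0.01. For fold changes, SE is the size of the log2 fold change divided by the square root of F. For ratios within libraries, SE is the square root of the sum of both group variances, each divided by its number of libraries. Ratios within libraries (counts plus 0.5) were compared by an exact two-sided permutation test over 70 assignments. Exon lengths and coordinates are from GENCODE M21. Scripts were tested on simulated data.

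The members and gene lists were chosen with earlier results of these data known. The genes named were the 7 members, the other S100 symbols, of the partner lists the called genes, those past an adjusted p of 0.05, the extremes and the textbook partners, the defining marker of a cell type, and the 3 genes with the highest Pearson r with each member. The partner genes past 0.05, Klrk1, Csf3r and Lyz2 were added after their values were seen. The highest and lowest genes of the marker lists, which the rule also named, are not given. DESeq2 1.42.0, other scalings and filters, a replicate block, leaving out each library and, for marker ratios, the mean of log2 counts were the alternatives. The length of coding transcripts was added after seeing the data.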

Additional observations from a re-analysis of the deposited data

How the results depend on the processing

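The limits are the 4 libraries per group, the scale and, for scarce members, counting error. Counting alone gives a coefficient of variation of 6.85% even at the highest count of S100a4, beside 12.5% between its control libraries, and of 2.41% at the lowest count of S100a9, beside 20.6%. All 7 members had log2 fold changes above 0 under all 16 alternatives, but on total counts S100a10 (0.024) and S100a13 (0.012) were at about 0. On total counts alone, 0 members were called, 1 passed an adjusted p of 0.05, 0 other S100 genes and 1 partner gene (of 3) were called, and log2 fold changes were 0.72 (S100a8), 0.74 (S100a9), 0.32 (S100a4) and 0.57 (S100a6). There Myd88 (-0.23), Tlr4 (-0.18), Ly96 (-0.74), Anxa5 (-0.19), Myh9 (-0.54), Cacybp (-0.75), Plat (-0.057), Nucb1 (-0.48) and Ly6c2 (-0.0078) turned below 0, as the median of all genes did. S100a11 passed the fold threshold with DESeq2 (1.00), DESeq2 size factors in edgeR (1.01), no count filter (1.00) and the replicate block (1.01). The call of S100a1 left 0 other S100 genes with at least 10 counts in all samples and with the replicate block.

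Leaving out 1 library gave 4 to 6 members called, 0 to 1 other S100 genes and 0 to 3 partner genes (0 without stress library 3, 1 without control library 2 or stress library 1). Log2 fold changes ran from 1.00 to 1.25 for S100a4, 0.89 to 1.14 for S100a11, 0.66 to 1.01 for S100a13, -0.11 to 0.43 for Ly96, -0.29 to 0.033 for Ahnak, -0.10 to 0.25 for Cacybp and -0.11 to 0.052 for Cd3e. Of the pairs of members, 8 passed an unadjusted p below 0.05 and 0 the adjusted one, which 8 pairs at the smallest possible p could not reach. Same-numbered libraries had correlations of deviations of 0.0621, 0.000441, -0.0445 and -0.16. Of the control libraries, only number 1 correlated most with the stress library of its own number. These 4 values cannot show whether same-numbered libraries share more than a number. With the replicate block 5 members were called in place of 4, and for ratios within libraries the exact sign-flip test over 4 pairs could not go below p = 0.125. The cause of these changes was not tested.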
